A study of Homo sapiens with 6 samples.

Results

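Solute carriers (SLC) are the membrane proteins that move small molecules and ions into and out of cells and organelles, and the mRNA levels of 144 of their genes were described in ARPE-19 cells, an established human retinal pigment epithelium (RPE) line, with and without a short hairpin RNA against METTL3. The members were all protein-coding rows of the deposited gene table whose symbol was SLC followed by a family number, or SLCO, which gave 144 of the 386 such genes annotated in GENCODE release 29 and of 7758 listed genes. The sh-METTL3 group and the sh-Control group held 3 libraries each. Cells of both groups carried a lentiviral hairpin construct, were kept under puromycin to select infected cells, and received lipopolysaccharide (LPS, a bacterial cell wall product that triggers inflammation) at 1 µg/ml for 24 h. No library without LPS and no library without virus was analysed here, so every value below is a difference between hairpins in LPS-stimulated cells. Separate infections behind the 3 libraries of each group are not stated in the labels, so p-values measure the spread between these libraries, which may be technical.

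SLC genes are numbered by family, and members of a family share sequence and often, though not always, the kind of cargo. Plasma membrane carriers take up glucose, amino acids, nucleosides, vitamins and ions, while other families sit in the mitochondrial inner membrane, the Golgi, lysosomes or synaptic vesicles. The RPE lies between the choroidal blood supply and the photoreceptors and is known for carrying glucose, taurine, amino acids, vitamins and ions towards the retina and lactate, water and waste back to the blood. METTL3 is the catalytic subunit of the complex that writes N6-methyladenosine (m6A) into mRNA, preferentially within GGACU-like sequences.

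The targeted gene was measured first. METTL3 read scaled counts of 1154, 1108 and 1091 in sh-Control and 966, 1001 and 765 in sh-METTL3, a scaled count being reads divided by a size factor for the library. All 3 sh-METTL3 libraries lay below all 3 sh-Control libraries, and the log2 fold change (sh-METTL3 minus sh-Control on log2 of the scaled count plus 1) was -0.30 with a limma adjusted p of 0.0108. The call was lost under edgeR with RLE scaling (-0.17, edgeR adjusted p 0.0881) and with all annotated genes counted as tests (limma adjusted p 0.0818), and without sh-METTL3 replicate 3 the fold change was -0.18. The libraries held between 10898434 and 17750052 reads on listed genes. Of 18 RPE markers 9 were listed; KRT8, KRT18, MITF, RDH5 and LRAT were higher and SERPINF1, PMEL, BEST1 and RDH11 lower in sh-METTL3, while RPE65, RLBP1, TTR and TYR were not among the listed genes. The summed scaled count of the listed RPE markers was 20254 to 21491 in sh-Control and 31347 to 34583 in sh-METTL3, a rise carried by KRT8 and KRT18; the other 7 summed to 3937 to 4007 in sh-Control and 2750.4 to 2907 in sh-METTL3. Of 12 mesenchymal markers 7 were listed, of which VIM and TAGLN were higher and 5 lower, and their sum was 226162 to 254721 in sh-Control and 185308 to 222914 in sh-METTL3. Most of that sum was FN1, which was lower, and VIM, which was higher, and the other 5 summed to 12922 to 14994 in sh-Control and 6692 to 8702 in sh-METTL3. The part of these markers in the values below was not tested. In bulk RNA, fewer cells of a type and less RNA per cell cannot be told apart.

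By limma at an adjusted p of 0.05, mRNA in sh-METTL3 cells was higher for 65 of the 144 members (45.1%) and lower for 78 (54.2%), and SLC7A11 did not pass. Among all listed genes 47.6% were higher and 52.2% lower, and 99.9% passed in either direction. The deposited table lists only genes that the authors had called on these same 6 libraries, so passing is a property of the table and nothing is read from it. The 3 libraries of one group lay wholly to one side of the other 3 for 142 members (98.6%), against 98.5% of all listed genes; the overlapping members were SLC7A11 and SLC16A14. A fitted difference of at least 2-fold was seen in 44 members (30.6%, against 30.7% of all listed genes), of which 23 were higher and 21 lower (14.6%), where the shares of all listed genes were 17.5% and 13.2%. The 23 include SLC16A5, SLC35F1 and SLC5A8, which had no sh-Control read and for which the reads allow a bound under 2-fold, and 20 were higher without them. The median log2 fold change was -0.28 over the members and -0.25 over the 6740 listed protein-coding genes. Under edgeR with RLE scaling, which moved the median of all listed genes by 0.12, the median over the members was -0.15, and 65 members were higher and 66 lower, 27 and 19 of them at least 2-fold. The shares by limma lie close to those of all listed genes, so the members as a whole did not stand apart. No difference between a family, class or list of carriers described here and these shares was tested. The differences between members were large, and over the 125 with a mean of at least 100 in the higher group the log2 fold changes ran from -4.08 to 5.05.

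**Figure D1:**
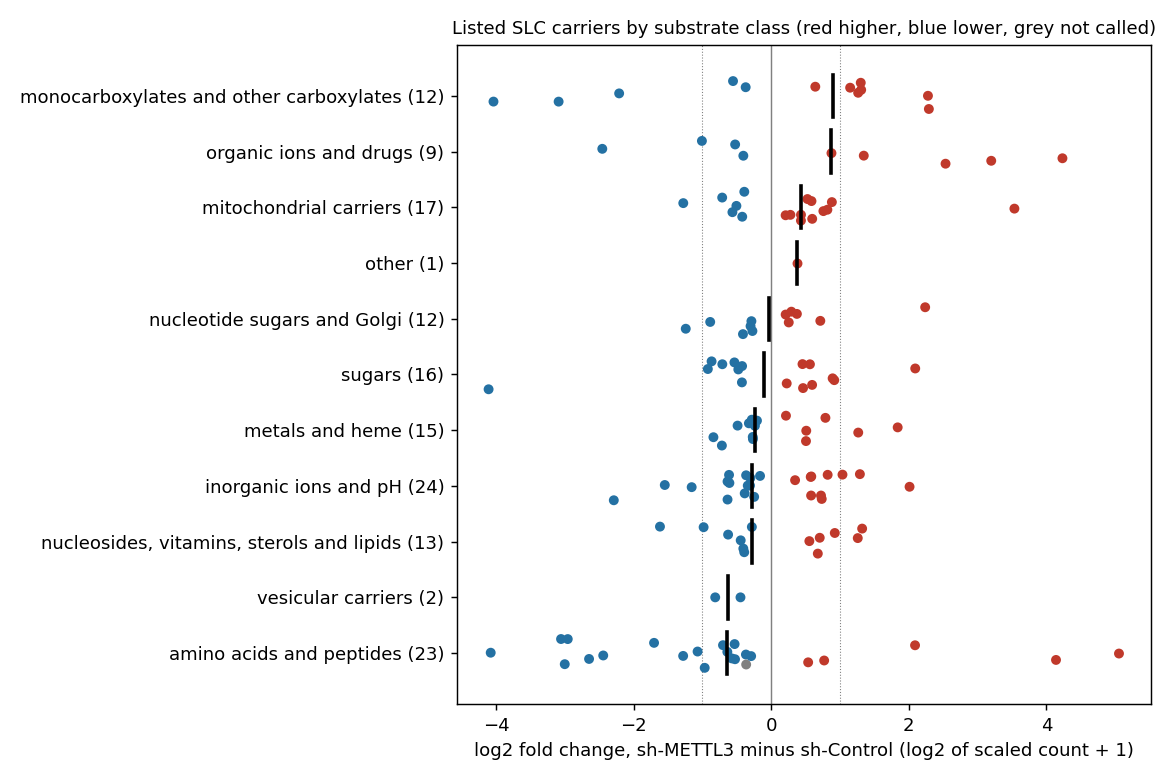
Log2 fold change of the 144 listed members (horizontal axis, sh-METTL3 minus sh-Control on log2 of the scaled count plus 1), 1 point per gene, grouped by the cargo class of its family (vertical axis). Amino acid and peptide carriers lie mostly to the left of 0 with a few far to the right, and mitochondrial carriers lie mostly to the right.

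Families of amino acid and peptide carriers had the widest range of log2 fold changes of any cargo class, -4.08 to 5.05, or from -3.05 without SLC43A3, which is known as a purine nucleobase carrier. Of 65 annotated genes in these families 23 were listed, and 17 fell, 5 rose and SLC7A11 did not pass, with a median log2 fold change of -0.64. Of the called genes 77.3% were lower, against 56.1% of called protein-coding genes, and the difference was not tested. Summed over the class, the scaled count per kb of exonic length was 5297 ± 435 (SD, n = 3) in sh-Control and 4067 ± 178 in sh-METTL3. SLC1A1, SLC6A17 and SLC7A8 rose more than 2-fold while close relatives fell. The results below turn on these relatives. The promoter sequences of 4 of them, from 250 bases before to 50 after the RefSeq transcription start on GRCh38.p14, are shown to set beside the values the pair that exchanged places in the SLC1 family and the pair of subunits that forms the large neutral amino acid exchanger. The SLC1A1 stretch lies at chr9:4490218-4490517 on the plus strand and that of SLC1A5 at chr19:46788545-46788844 on the minus strand. That of SLC7A5 lies at chr16:87869458-87869757 on the minus strand and that of SLC3A2 at chr11:62881449-62881748 on the plus strand. The annotated SLC3A2 gene runs from 62856102 to 62888875, so its stretch belongs to a start inside the gene. Whether that start is used in these cells was not tested. Capitals mark a match to CACGTG, the E-box core bound by MYC-type factors (in SLC7A5), or to TGATGNAA, the core of the element bound by ATF4 with C/EBP partners, here on the opposite strand (in SLC3A2). The SLC1A1 and SLC1A5 stretches held no match to these motifs or to AGGTCA, a site of nuclear receptors.
SLC1A1: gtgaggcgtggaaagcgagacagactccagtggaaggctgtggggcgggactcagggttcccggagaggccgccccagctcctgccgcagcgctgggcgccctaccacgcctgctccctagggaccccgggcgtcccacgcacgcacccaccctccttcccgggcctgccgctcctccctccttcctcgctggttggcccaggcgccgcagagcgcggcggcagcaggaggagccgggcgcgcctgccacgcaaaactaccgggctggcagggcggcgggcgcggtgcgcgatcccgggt
SLC1A5: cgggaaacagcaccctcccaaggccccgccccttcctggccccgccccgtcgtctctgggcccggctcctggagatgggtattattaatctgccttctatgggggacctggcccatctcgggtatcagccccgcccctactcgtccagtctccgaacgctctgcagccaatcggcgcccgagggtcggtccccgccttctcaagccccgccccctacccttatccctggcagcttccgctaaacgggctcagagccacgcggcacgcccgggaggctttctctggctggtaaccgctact
SLC7A5: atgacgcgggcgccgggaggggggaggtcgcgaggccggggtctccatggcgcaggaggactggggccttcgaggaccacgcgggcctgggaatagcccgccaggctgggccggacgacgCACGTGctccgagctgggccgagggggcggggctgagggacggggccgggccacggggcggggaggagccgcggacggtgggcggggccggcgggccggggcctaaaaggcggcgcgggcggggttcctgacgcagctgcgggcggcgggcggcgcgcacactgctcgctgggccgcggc
SLC3A2: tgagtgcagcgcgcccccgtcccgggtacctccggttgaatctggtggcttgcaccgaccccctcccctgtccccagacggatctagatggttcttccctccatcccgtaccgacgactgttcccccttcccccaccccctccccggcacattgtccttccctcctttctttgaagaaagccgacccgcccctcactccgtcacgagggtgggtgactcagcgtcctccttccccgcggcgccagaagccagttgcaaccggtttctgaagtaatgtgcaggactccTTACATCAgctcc

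In the SLC1 family the leading member changed. SLC1A5 (ENSG00000105281, chromosome 19, 46774883 to 46788594 on GRCh38), the sodium-dependent glutamine carrier ASCT2, read scaled counts of 1197, 1184 and 948 in the sh-Control libraries and 167, 169 and 191 in the sh-METTL3 libraries. Every sh-METTL3 library lay far below every sh-Control library, a 6.31-fold fall (log2 fold change -2.65, SE 0.111, limma adjusted p 4.49e-08). SLC1A1 (ENSG00000106688, chromosome 9, 4490444 to 4587469), the glutamate and aspartate carrier EAAT3, moved the other way and read scaled counts of 74.98, 69.2 and 80.4 in sh-Control and 1392, 1277 and 1331 in sh-METTL3. Its groups were wide apart with little spread inside either, a 17.8-fold rise (log2 fold change 4.14, SE 0.0992, limma adjusted p 1.87e-09). SLC1A4, the alanine, serine and cysteine carrier ASCT1, fell from 222 ± 55.1 to 150.0 ± 5.01 (log2 fold change -0.53, limma adjusted p 0.0137), and lost its call without sh-Control replicate 1 or 2 and with all annotated genes counted as tests, with fold changes of -0.73 to -0.36 on the log2 scale over all alternatives. On the scale of scaled counts per kb, SLC1A5 made up 86.8% ± 0.82 (SD, n = 3) of the listed SLC1 level in sh-Control and 12.9% ± 0.98 in sh-METTL3. SLC1A1 made up 4.96% ± 1.01 and 81.8% ± 1.21. The summed level of the 3 genes was 384 ± 48.4 scaled counts per kb in sh-Control and 408 ± 14.3 in sh-METTL3, a difference within the spread of the sh-Control libraries, which ran from 328 to 418. The remaining annotated genes of the family, SLC1A3 among them, were not listed and were not analysed here.

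**Figure D2:**
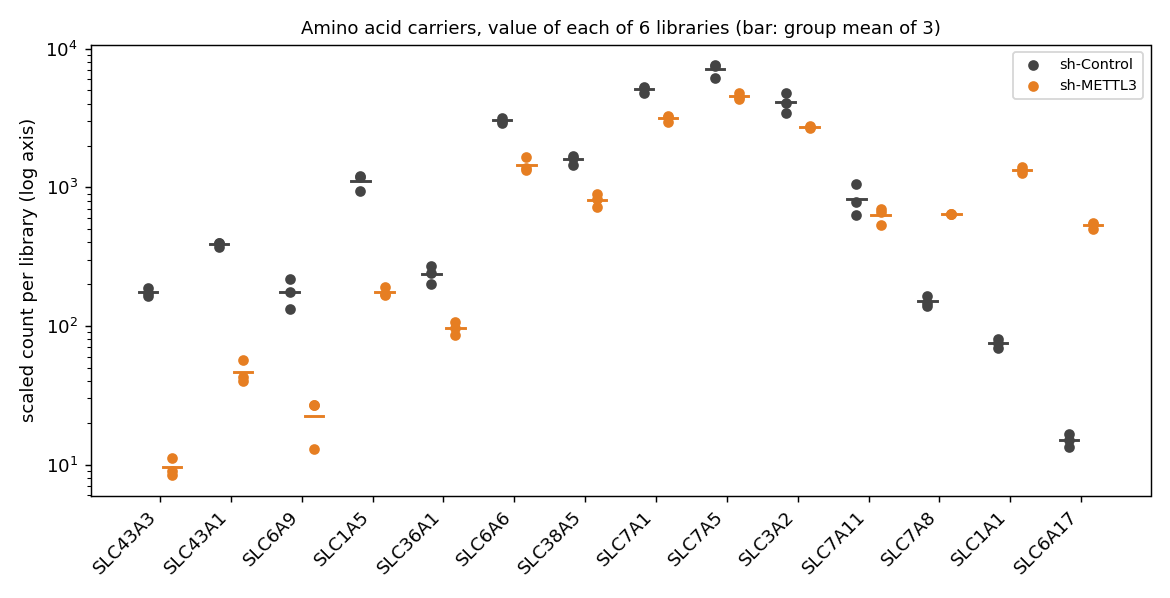
Scaled counts of amino acid carrier genes in each of the 6 libraries (log axis), 1 point per library, with sh-Control and sh-METTL3 side by side and the group mean as a bar. SLC1A1, SLC6A17 and SLC7A8 lie higher in every sh-METTL3 library than in any sh-Control library, while SLC1A5, SLC43A1, SLC43A3 and SLC6A9 lie lower.

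In the SLC7 family and its partner, the abundant exchangers fell while a relative rose. SLC7A5, the large neutral amino acid exchanger LAT1, read scaled counts of 7599.8, 7529.9 and 6173 in the sh-Control libraries and 4514, 4336 and 4798 in the sh-METTL3 libraries, and its heavy chain SLC3A2 (4F2hc, also called CD98) read scaled counts of 4797, 4044 and 3422 in sh-Control and 2775, 2684 and 2711 in sh-METTL3. Neither gene's groups overlapped, and the log2 fold changes were -0.64 and -0.57 (limma adjusted p 5.63e-05 and 0.000444). SLC7A8 (ENSG00000092068, chromosome 14, 23125295 to 23183674), the related exchanger LAT2 that uses the same heavy chain, read scaled counts of 139.6, 165 and 146 in the sh-Control libraries and 639, 647 and 638 in the sh-METTL3 libraries. That is a rise of 2.09 on the log2 scale (SE 0.1003, limma adjusted p 9.86e-08), and the 3 sh-METTL3 libraries were nearly equal. Per kb, SLC7A5 still made up most of the listed SLC7 level, 63.1% ± 1.27 in sh-Control and 59.3% ± 0.831 in sh-METTL3, while SLC7A8 went from 1.06% ± 0.122 to 6.64% ± 0.295. SLC7A1, the cationic amino acid carrier CAT1, fell from 5095 ± 258 to 3135 ± 140.5 (log2 fold change -0.70). SLC7A6 and SLC7A7, the y+L exchangers for cationic and neutral amino acids, fell by 0.29 and 1.70 on the log2 scale, and SLC7A6 lost its call under edgeR with RLE scaling (-0.33 to -0.17 over all alternatives). SLC7A11, the cystine and glutamate exchanger xCT, read scaled counts of 1059, 782 and 631 in sh-Control and 535, 659.8 and 695 in sh-METTL3. Of the sh-METTL3 libraries 2 lay above the lowest sh-Control library, and the log2 fold change of -0.36 (SE 0.168) missed the threshold with a limma adjusted p of 0.0553; without sh-Control replicate 3 it was -0.54 (limma adjusted p 0.00819) and without sh-METTL3 replicate 3 -0.44 (0.0313), both past the threshold. It missed the threshold in each of the other 4 leave-outs, and over all alternatives ran from -0.54 to -0.17.

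Both listed SLC43 genes fell, and these were among the steepest falls of the members. SLC43A1 (ENSG00000149150, chromosome 11, 57484534 to 57515786), the neutral amino acid carrier LAT3, read scaled counts of 393, 399.7 and 373 in the sh-Control libraries and 56.9, 39.9 and 42.6 in the sh-METTL3 libraries. SLC43A3 (ENSG00000134802, chromosome 11, 57406954 to 57427580), assigned here by its family number, read scaled counts of 189, 173 and 165 in sh-Control and 8.397, 9.02 and 11.2 in sh-METTL3. The groups stood clear of each other in both genes, with log2 fold changes of -3.05 and -4.08 (limma adjusted p 1.72e-07 and 1.45e-07) and an 18.4-fold fall in SLC43A3. The genes lie 57.0 kb apart on chromosome 11, where all 13 listed members fell and where 443 of all 578 listed genes were lower. The part of the chromosome in these values was not tested.

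The SLC6 family, sodium- and chloride-dependent carriers of neurotransmitters, amino acids and osmolytes, held the largest rise of any member. SLC6A17 (ENSG00000197106, chromosome 1, 110150486 to 110202202), a carrier of neutral amino acids known from synaptic vesicles, read scaled counts of 16.8, 13.5 and 14.96 in the sh-Control libraries and 544, 499 and 549.8 in the sh-METTL3 libraries. It was close to the bottom of the range in all 3 sh-Control libraries and 35.3-fold higher in sh-METTL3 (log2 fold change 5.05, SE 0.159, limma adjusted p 8.14e-09). SLC6A6, the taurine carrier for which the RPE is known, read scaled counts of 3023, 3174 and 2911 in sh-Control and 1642, 1371 and 1340.3 in sh-METTL3. The groups were separated and the fall was 1.07 on the log2 scale (limma adjusted p 1.50e-06). SLC6A8, the creatine carrier, rose from 1472 ± 49.9 to 2540.0 ± 497 (log2 fold change 0.77), with the third sh-METTL3 library highest. Per kb, SLC6A6 went from 45.8% ± 1.20 to 22.0% ± 3.92 of the listed SLC6 level and SLC6A8 from 33.3% ± 0.428 to 56.9% ± 5.57. The glycine carrier SLC6A9 (GlyT1) read scaled counts of 218, 176 and 132 in the sh-Control libraries and 13.1, 27.1 and 26.9 in the sh-METTL3 libraries, a fall of 2.96 on the log2 scale. The betaine and GABA carrier SLC6A12 fell from 52.3 ± 12.7 to 6.07 ± 3.097, and SLC6A15, a carrier of branched-chain amino acids and proline, fell by 0.53. The summed family level per kb was 804 ± 35.8 and 808 ± 80.9, which did not differ beyond the spread.

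Among the proton- and sodium-coupled amino acid carriers, SLC36A1 (PAT1, on lysosomes and the plasma membrane) fell from 237 ± 33.5 to 96.6 ± 10.5 and SLC36A4 fell from 773 ± 26.9 to 599.6 ± 28.6. SLC38A5, a glutamine and histidine carrier of system N, read scaled counts of 1447, 1684 and 1630.2 in sh-Control and 828, 722 and 890.2 in sh-METTL3, and the groups did not overlap (log2 fold change -0.97, limma adjusted p 6.22e-06). SLC38A10 rose from 2211 ± 104 to 3208 ± 66.99. SLC15A3, which carries histidine and small peptides out of lysosomes, fell from 39.6 ± 10.8 to 7.07 ± 4.601. Several amino acid carrier genes are known targets of the stress-responsive factor ATF4. The mRNA of ATF4 itself read scaled counts of 10808, 10697 and 9717 in sh-Control and 5256, 4947 and 5397 in sh-METTL3. Its sh-METTL3 values were all below its sh-Control values (limma adjusted p 4.11e-07), and its part in the carriers' values was not tested.

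**Figure D3:**
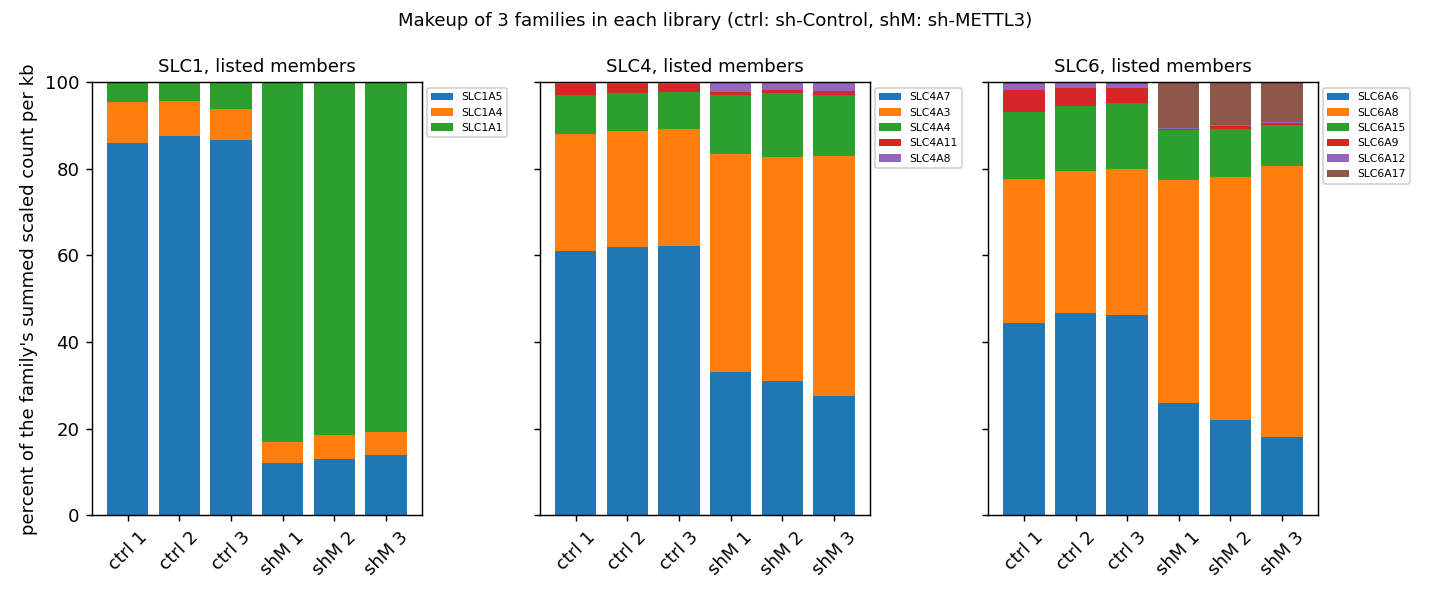
Percent of the summed level per kb of exonic length (vertical axis) that each listed gene contributed in the SLC1, SLC4 and SLC6 families, as stacked bars for each of the 6 libraries (ctrl, sh-Control; shM, sh-METTL3). SLC1A5 takes most of every sh-Control bar and SLC1A1 most of every sh-METTL3 bar, and SLC4A7 and SLC6A6 shrink while SLC4A3 and SLC6A8 grow.

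The SLC16 family of monocarboxylate carriers was the most completely listed large family, with 10 of 14 annotated genes. Of these 7 rose and 3 fell, 6 and 1 of them at least 2-fold by the fit (5 and 1 without SLC16A5, whose bound is under 2-fold), with a median log2 fold change of 1.21, or 0.89 with SLC16A5, which had no sh-Control read, set at its bound. Among all listed genes 47.6% were higher, 17.5% were at least 2-fold higher and 13.2% at least 2-fold lower, and the difference from these shares was not tested. SLC16A1, the widely used lactate and pyruvate carrier MCT1, read scaled counts of 4647, 4706 and 4802 in sh-Control and 3121, 3103 and 3423 in sh-METTL3. It fell by 0.55 on the log2 scale (SE 0.0544, limma adjusted p 9.73e-06) with no overlap. SLC16A7 (MCT2) fell from 356 ± 24.5 to 276 ± 37.9, a call lost under edgeR with RLE scaling and with all annotated genes counted as tests (-0.48 to -0.24 on the log2 scale over all alternatives). SLC16A8 (MCT3), the lactate carrier known from the basolateral membrane of the RPE, read scaled counts of 23.9, 25.9 and 15.9 in the sh-Control libraries and 49.4, 63.1 and 51.5 in the sh-METTL3 libraries. It was low in every library and higher in all 3 sh-METTL3 libraries (log2 fold change 1.30, limma adjusted p 0.000878). SLC16A4 and SLC16A12 led the rises. SLC16A4, whose cargo is not settled, read scaled counts of 406, 462 and 533 in sh-Control and 1116, 1045 and 1191 in sh-METTL3, and the creatine carrier SLC16A12 read scaled counts of 264, 327 and 339 in the sh-Control libraries and 675, 677 and 699.8 in the sh-METTL3 libraries. The groups of both were well apart, with log2 fold changes of 1.26 and 1.15. The aromatic amino acid carrier SLC16A10 fell from 28.1 ± 4.53 to 3.35 ± 3.89, and SLC16A9 rose from 9.15 ± 4.64 to 45.4 ± 5.89. SLC16A14 read scaled counts of 15.2, 22.1 and 54.2 in sh-Control and 53.2, 76.03 and 73.9 in sh-METTL3, so 1 sh-Control library lay just above the lowest sh-METTL3 library, and its call was lost with all annotated genes counted as tests. Per kb, SLC16A1 made up 61.6% ± 1.21 of the listed family level in sh-Control and 37.1% ± 1.11 in sh-METTL3, and SLC16A4 10.2% ± 1.05 and 21.6% ± 0.825. BSG (basigin), the chaperone that brings MCT1 and MCT3 to the membrane, was 0.34 higher on the log2 scale, and EMB (embigin), the partner of MCT2, was lower (-0.38).

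Of the 5 annotated di- and tricarboxylate carriers of SLC13 2 were listed, and both fell. SLC13A3 (NaDC3), which takes up succinate and related acids, read scaled counts of 743, 771 and 735 in the sh-Control libraries and 155, 146 and 186 in the sh-METTL3 libraries. The groups stood clear of each other (log2 fold change -2.21, limma adjusted p 1.15e-07). SLC13A5, the plasma membrane citrate carrier NaCT, had 40, 29 and 30 reads in the sh-Control libraries and 1, 0 and 2 in the sh-METTL3 libraries, too few for a ratio to be given.

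Glucose carriers and their relatives were split evenly, with 8 of 16 listed members higher and 8 lower. SLC2A1 (ENSG00000117394, chromosome 1, 42925375 to 42959176), the glucose carrier GLUT1 of the RPE and the blood-retina barrier, read scaled counts of 14516, 16542 and 16141 in sh-Control and 19788, 20019.6 and 25202 in sh-METTL3. All sh-METTL3 libraries were higher, the third most so, and the log2 fold change was 0.45 (SE 0.0959, limma adjusted p 0.00132). SLC2A3 (GLUT3), its high-affinity relative, read scaled counts of 2231, 2341 and 2257 in the sh-Control libraries and 1368, 1241 and 1146 in the sh-METTL3 libraries, a fall of 0.87 on the log2 scale with no overlap. GLUT1 made up 81.2% ± 0.844 of the listed SLC2 level per kb in sh-Control and 87.4% ± 1.46 in sh-METTL3, and GLUT3 9.03% ± 0.376 and 3.94% ± 0.758. SLC2A6, SLC2A11 and SLC2A12 rose by 0.23, 0.59 and 0.46 on the log2 scale and SLC2A10 fell by 0.43. SLC2A12 lost its call without sh-Control replicate 1 (0.36, limma adjusted p 0.0890) or without sh-METTL3 replicate 3 (0.28, 0.0710), and also by limma without a trend. With all annotated genes counted as tests SLC2A6 and SLC2A12 lost their calls. TXNIP, which promotes the removal of GLUT1 from the cell surface, was 0.69 lower on the log2 scale. HIF1A, which encodes a factor that switches on SLC2A1 in low oxygen, was 0.83 higher.

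**Figure D4:**
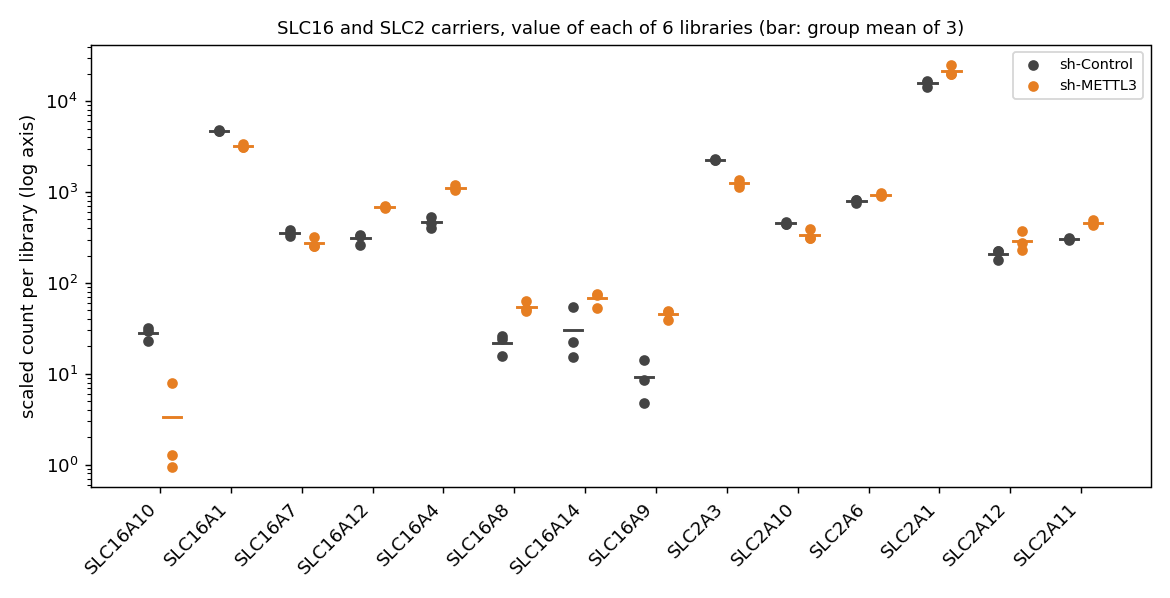
Scaled counts (log axis) of 8 SLC16 and 6 SLC2 genes in each library, with the sh-Control and sh-METTL3 libraries side by side and the group mean as a bar. SLC16A1 falls while SLC16A4 and SLC16A12 rise, and SLC2A1 rises while SLC2A3 falls.

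All 4 annotated SLC37 genes, sugar phosphate exchangers of the endoplasmic reticulum, were listed. SLC37A4, the glucose-6-phosphate carrier needed for glucose release, fell from 1346 ± 79.7 to 712 ± 64.9 (log2 fold change -0.92, limma adjusted p 4.84e-06). SLC37A2 and SLC37A3 fell by 0.53 and 0.42 on the log2 scale, and SLC37A1 rose from 75.3 ± 11.96 to 139.9 ± 13.9. SLC45A2, a carrier of pigment cell organelles, rose from 56.7 ± 9.58 to 108 ± 20.1. SLC45A4 rose by 0.56 and SLC45A3 fell by 0.48. In SLC5, SLC5A6, the carrier of biotin and pantothenate, fell from 527 ± 113 to 318 ± 26.95. SLC5A4 had 27, 27 and 18 reads in the sh-Control libraries and 0, 0 and 1 in the sh-METTL3 libraries, again too few for a ratio.

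Of 17 listed mitochondrial carriers of the SLC25 family (48 annotated) 11 rose and 6 fell, with a median log2 fold change of 0.43. That is 64.7% higher, against 43.9% of called protein-coding genes, and the difference was not tested. Their summed level per kb was 8810 ± 287 in sh-Control and 11489 ± 258 in sh-METTL3, and the lowest sh-METTL3 library (11191) lay above the highest sh-Control library (9083). SLC25A6, an ADP/ATP exchanger from the pseudoautosomal region, made up 43.5% ± 1.70 and 48.1% ± 1.58 of that sum and read scaled counts of 8558, 8684 and 7655 in sh-Control and 12231, 12423 and 11208 in sh-METTL3. The groups did not overlap (log2 fold change 0.53, SE 0.0663, limma adjusted p 5.15e-05). Its relative SLC25A4 rose from 830.2 ± 57.6 to 1120.5 ± 70.7, and the phosphate carrier SLC25A3 rose from 7374 ± 90.6 to 8538 ± 511. SLC25A1, which exports citrate for fatty acid and sterol synthesis, read scaled counts of 1523, 1775 and 1668 in the sh-Control libraries and 2999, 2963 and 3179 in the sh-METTL3 libraries. All 3 sh-METTL3 libraries were higher (log2 fold change 0.88, limma adjusted p 1.53e-06).

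Other SLC25 genes that rose were SLC25A23, a calcium-regulated ATP-Mg/phosphate carrier (0.76 on the log2 scale), SLC25A29, a carrier of basic amino acids (0.82), SLC25A39, needed for mitochondrial glutathione (0.28), SLC25A42, a coenzyme A carrier (0.59), and SLC25A51, the NAD carrier (0.60). SLC25A27, an uncoupling protein relative known from brain, read scaled counts of 10.4, 11.5 and 9.35 in sh-Control and 143, 126 and 124 in sh-METTL3, 12.6-fold higher in sh-METTL3 though low per kb. The iron importers moved against the family. SLC25A37 (mitoferrin 1) read scaled counts of 4742, 4558 and 4384 in the sh-Control libraries and 2058, 1974 and 1636 in the sh-METTL3 libraries, a fall of 1.28 on the log2 scale (limma adjusted p 5.94e-07), and SLC25A28 (mitoferrin 2) fell from 929.7 ± 28.8 to 695 ± 36.6. SLC25A13, the aspartate and glutamate exchanger citrin, fell by 0.39, SLC25A30 by 0.51, SLC25A43 by 0.56 and SLC25A45 by 0.71 on the log2 scale.

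Families of inorganic ion and pH carriers numbered 24 of 63 annotated genes, with 10 higher and 14 lower. Of the 22 without the scaffold genes SLC9A3R1 and SLC9A3R2, which are no carriers, 8 were higher and 14 lower. In the bicarbonate family SLC4, SLC4A7 (NBCn1), a sodium bicarbonate cotransporter, read scaled counts of 6322, 6979 and 7068 in sh-Control and 3426, 3264 and 2523 in sh-METTL3, and SLC4A3 (AE3), a chloride bicarbonate exchanger, read scaled counts of 1496, 1602 and 1626 in the sh-Control libraries and 2770.0, 2878 and 2695 in the sh-METTL3 libraries. Both were fully separated between groups, in opposite directions, with log2 fold changes of -1.16 and 0.82 (limma adjusted p 5.09e-06 and 9.16e-07). Per kb SLC4A7 went from 61.7% ± 0.698 to 30.5% ± 2.81 of the listed family level and SLC4A3 from 27.1% ± 0.181 to 52.5% ± 2.61. SLC4A4 (NBCe1), known from the apical membrane of the RPE, rose from 954 ± 23.04 to 1429 ± 125. SLC4A8, a sodium-driven chloride bicarbonate exchanger, rose from 89.8 ± 9.29 to 366 ± 45.8 (log2 fold change 2.01), and SLC4A11 fell from 104 ± 7.83 to 35.1 ± 4.91.

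Among the sodium proton exchangers, the epithelial SLC9A3 rose from 381 ± 9.59 to 570.3 ± 70.4, while the endosomal SLC9A9 and the Golgi SLC9A8 fell by 0.63 and 0.25 on the log2 scale. The call of SLC9A8 was lost under edgeR with RLE scaling and with all annotated genes counted as tests (-0.29 to -0.12 over all alternatives). SLC9A3R1 and SLC9A3R2 match the naming rule but encode NHERF scaffold proteins and not carriers. SLC9A3R1 read scaled counts of 6899, 8019 and 7251 in sh-Control and 12273, 12083 and 12188 in sh-METTL3 (log2 fold change 0.72, limma adjusted p 3.96e-06), and SLC9A3R2 rose by 0.58. The sodium calcium exchanger SLC8A1 (NCX1) read scaled counts of 187, 163 and 166 in the sh-Control libraries and 47.6, 23.2 and 36.95 in the sh-METTL3 libraries, a fall of 2.29, and its mitochondrial relative SLC8B1 fell by 0.36. Both phosphate carriers of SLC20 fell, SLC20A1 from 1912 ± 145 to 1258 ± 145 and SLC20A2 from 1123 ± 46.2 to 887 ± 53.7. Among the cation chloride cotransporters, SLC12A2 (NKCC1) rose from 354 ± 30.7 to 450.1 ± 22.6, whereas the potassium chloride cotransporter SLC12A4 fell by 0.16 on the log2 scale. The call of SLC12A4 was lost under edgeR with RLE scaling (-0.04, edgeR adjusted p 0.494) or TMM scaling (edgeR adjusted p 0.0503) and with all annotated genes counted as tests (limma adjusted p 0.0768). The sulfate carrier SLC26A2 fell from 434 ± 46.5 to 332 ± 31.8 and the anion exchanger SLC26A6 fell from 1479 ± 45.98 to 1195 ± 32.8; the call of SLC26A2 was lost with all annotated genes counted as tests. The listed regulators of these cotransporters, STK39, OXSR1 and WNK4, were lower by 0.57, 0.31 and 1.06 on the log2 scale. ATP1B3, a subunit of the sodium pump that keeps up the sodium gradient many carriers use, was lower by 0.21.

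Metal and heme carriers were listed for 15 of 30 annotated genes, 6 higher and 9 lower. SLC39A14 (ZIP14), which imports zinc, iron and manganese, read scaled counts of 4296, 3643 and 3125 in sh-Control and 2199, 1945 and 1996 in sh-METTL3. It fell without overlap (log2 fold change -0.84, limma adjusted p 3.96e-05). SLC39A7, which releases zinc from the endoplasmic reticulum and was the highest of the family per kb, fell from 3603 ± 143 to 2968 ± 243, and SLC39A13, SLC39A10 and SLC39A6 fell by 0.27, 0.32 and 0.21 on the log2 scale. SLC39A8 (ZIP8), SLC39A9 and SLC39A4 rose by 0.21, 0.51 and 0.79. The zinc exporters SLC30A4, SLC30A5 and SLC30A7 of secretory compartments fell by 0.72, 0.27 and 0.49, and SLC30A3 was low and rose from 14.6 ± 11.2 to 42.5 ± 11.9, a call lost without sh-METTL3 replicate 1 and with all annotated genes counted as tests (log2 fold changes of 1.02 to 2.40 over all alternatives). SLC31A1, the copper importer CTR1, fell from 1096 ± 90.6 to 929 ± 52.3, a call lost without sh-Control replicate 1 or 2 or sh-METTL3 replicate 2 (-0.31 to -0.11), as was that of SLC39A6 without sh-METTL3 replicate 2 (-0.25 to -0.08). Under edgeR with RLE scaling the calls of SLC31A1, SLC39A6, SLC39A13 (-0.30 to -0.14 over all alternatives) and SLC30A5 (-0.29 to -0.15) were lost, and with all annotated genes counted as tests those of SLC31A1, SLC39A6 and SLC39A8. SLC40A1 (ferroportin), the cellular iron exporter, read scaled counts of 34.3, 42.3 and 41.1 in the sh-Control libraries and 79.3, 115 and 95.2 in the sh-METTL3 libraries, and SLC48A1, a heme carrier, read scaled counts of 775, 772 and 755 in sh-Control and 1162, 1089 and 1034 in sh-METTL3. Both rose with no overlap, by 1.27 and 0.51 on the log2 scale.

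Carriers of organic ions and drugs were few, 9 of 37 annotated, but held several large changes. SLC22A17, the receptor for lipocalin 2, read scaled counts of 122, 122 and 102 in the sh-Control libraries and 648, 642 and 723 in the sh-METTL3 libraries. The groups were far apart (log2 fold change 2.53, SE 0.114, limma adjusted p 6.43e-08). SLC22A15 rose from 72.1 ± 9.68 to 185 ± 28.98 and SLC22A23 rose from 131 ± 30.1 to 237 ± 26.2, while SLC22A3, the organic cation carrier OCT3, fell from 692 ± 51.8 to 528 ± 100.5 and lost its call without sh-Control replicate 1 (-0.34, limma adjusted p 0.0506), under edgeR with RLE scaling and with all annotated genes counted as tests (-0.54 to -0.26 over all alternatives). SLCO1A2, a carrier of bile salts and steroid conjugates, read scaled counts of 11.2, 11.5 and 22.4 in sh-Control and 311, 379 and 199 in sh-METTL3, with a wide spread among the sh-METTL3 libraries that still left the lowest well above sh-Control (log2 fold change 4.23, SE 0.309). The other listed SLCO genes fell, SLCO4A1, a thyroid hormone carrier, from 943 ± 160.1 to 465 ± 45.4, SLCO3A1 from 1268 ± 15.8 to 882 ± 29.5 and the weak SLCO2B1 from 22.9 ± 7.68 to 3.73 ± 2.64.

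Among carriers of nucleosides, vitamins, sterols and lipids, 6 of 13 listed genes rose and 7 fell. All 3 listed SLC44 genes, choline carrier-like proteins, rose. SLC44A2 read scaled counts of 2189, 2639 and 2578 in the sh-Control libraries and 3697, 3745 and 4667 in the sh-METTL3 libraries and SLC44A5 read scaled counts of 728, 693 and 836 in sh-Control and 1363, 1488 and 1423 in sh-METTL3, with log2 fold changes of 0.71 and 0.92, and SLC44A3 rose by 0.68. The equilibrative nucleoside carriers SLC29A1 (ENT1) and SLC29A2 (ENT2) fell, SLC29A1 from 2941 ± 155 to 2418 ± 36.7 and SLC29A2 from 251 ± 11.8 to 82.6 ± 17.8. SLC29A4, which carries monoamines, read scaled counts of 167, 168 and 144 in the sh-Control libraries and 368, 403 and 430.0 in the sh-METTL3 libraries, more than 2-fold higher in sh-METTL3 (log2 fold change 1.32, limma adjusted p 4.45e-06). SLC28A3, a concentrative nucleoside carrier, rose from 38.7 ± 15.9 to 92.8 ± 29.4. Of the vitamin carriers, SLC23A2 (vitamin C) rose from 929 ± 16.97 to 1365 ± 42.6, while SLC19A1 (folate), SLC19A2 (thiamine) and SLC52A2 (riboflavin) fell by 0.40, 0.63 and 0.39 on the log2 scale, and the call of SLC19A1 was lost with all annotated genes counted as tests. SLC27A4, a fatty acid transport protein, fell by 0.44.

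Nucleotide sugar carriers and other SLC35 genes were balanced, 6 higher and 6 lower of 12 listed. Their summed level per kb was 1594 ± 54.5 in sh-Control and 1291 ± 30.8 in sh-METTL3, the lower sum resting mostly on SLC35F2, which read scaled counts of 1597, 1499 and 1373 in sh-Control and 675, 611 and 601 in sh-METTL3 (log2 fold change -1.24, limma adjusted p 4.89e-07). The GDP-fucose carrier SLC35C1 fell from 933 ± 45.6 to 760.2 ± 83.6, a call lost under edgeR with RLE scaling and with all annotated genes counted as tests (-0.39 to -0.17 on the log2 scale over all alternatives). SLC35B1, which brings ATP into the endoplasmic reticulum, fell from 691 ± 50.98 to 521 ± 50.5. SLC35A3, a UDP-N-acetylglucosamine carrier, and SLC35D1 rose by 0.37 and 0.29 on the log2 scale. Both listed vesicular carriers fell, SLC17A9, the vesicular nucleotide carrier, from 1453 ± 103 to 829 ± 107 and SLC18B1, a polyamine carrier, from 271 ± 17.8 to 199 ± 22.2.

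By level per kb of exonic length, which allows genes to be set side by side, the highest members in sh-Control were SLC25A6 (3835 scaled counts per kb), SLC2A1 (3330) and SLC9A3R1 (3192), followed by SLC7A5 (1497), SLC39A7 (1266) and SLC16A1 (888). In sh-METTL3 SLC25A6 (5524), SLC9A3R1 (5262) and SLC2A1 (4587) led, and SLC25A1 (1454) stood above SLC39A7 (1043), SLC25A3 (960) and SLC7A5 (959). At the other end, 4 members had no read in any sh-Control library. SLC22A2 (the organic cation carrier OCT2) had 14, 7 and 4 reads in sh-METTL3, SLC16A5 had 4, 5 and 2, SLC35F1 had 3, 2 and 6 and SLC5A8 had 7, 3 and 1. Against a floor of 3 reads per library they were at least 3.29-fold, 1.54-fold, 1.497-fold and 1.43-fold higher, and their fitted log2 fold changes are no bounds. Of the 19 members with a mean under 100 in both groups 12 were higher and 7 lower, and the median log2 fold change was 1.27, or 0.62 with those 4 genes at their bound. Of the 125 with a mean of at least 100 in the higher group, 53 were higher and 71 lower.

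**Figure D5:**
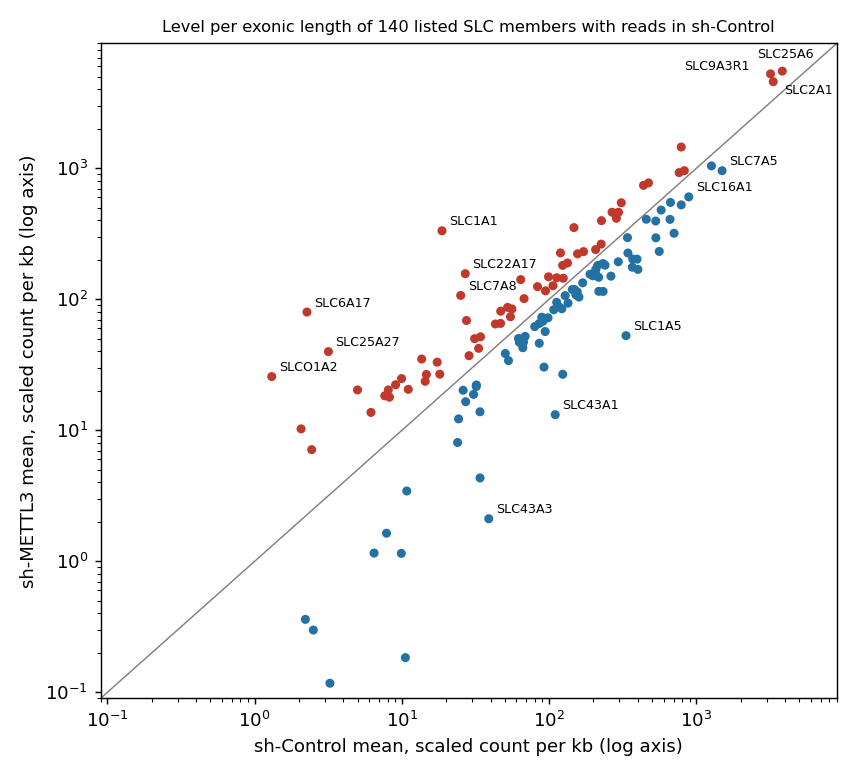
Mean level in sh-METTL3 (vertical axis) against the mean level in sh-Control (horizontal axis), both in scaled counts per kb of exonic length on log axes, for the 140 members with sh-Control reads. Most members lie near the line of equal level, and SLC1A1, SLC6A17 and SLCO1A2 lie far above it and SLC1A5 and SLC43A3 far below.

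By chromosome, all 13 listed members on 11, all 6 on 3, all 4 on 15, both on 13 and the 1 on 18 were lower, as were 7 of 8 on chromosome 20. More members were higher than lower on several others, 4 of 5 on 14 and on 19 and 5 of 7 on 9 and on X. Among all listed genes, 443 of 578 on chromosome 11 (76.6%) and 216 of 315 on chromosome 15 (68.6%) were lower. The share of all called genes that were lower was 50.8% on chromosome 3, 59.0% on 13, 53.8% on 18 and 44.5% on 20, and it was 49.6% on 14, 44.7% on 19, 43.9% on 9 and 40.2% on X. No difference between the members and the other genes of a chromosome was tested. Without the members on chromosomes 11 and 15, a choice made after seeing the data, 65 were higher and 61 lower of 127, and the median log2 fold change was 0.21 against -0.28 with them. The same removal was not made for all listed genes, most of which were also lower on these chromosomes. The shift is therefore not read as a trait of the members. Of 14 pairs of neighbouring listed members that start within 1 Mb of each other's end, 9 had the same sign. SLC6A17 and SLC16A4 (161 kb apart on chromosome 1) both rose, as did SLC7A8 and SLC22A17 (163 kb apart on chromosome 14). SLC7A7 fell beside SLC7A8, and SLC22A3 fell beside SLC22A2.

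RefSeq promoters were found for 108 of the 144 members, matched by symbol. On either strand, TGATGNAA was present in 3 of them (2.78%; SLC3A2, SLC7A1 and SLC9A9, all lower) against 3.62% of all 35116 promoters of the same length. CACGTG was present in 10 (9.26%) against 7.26%, 3 of 53 higher and 7 of 55 lower members, and AGGTCA in 12 (11.1%) against 13.8%, 4 and 8. Among the 12 lower members of the amino acid families with a promoter, TGATGNAA was present in 2 (16.7%), CACGTG in 3 and AGGTCA in 0. None of the 3 motifs contains another, and a match is a description of letters and not of a bound site. The SLC3A2 promoter with the match lies at a start inside the annotated gene. A single promoter per symbol was kept for the members, while the 35116 promoters were not reduced in this way. Shares of members and of all promoters therefore come from unlike sets, and their difference was not tested. GGACU, searched in the longest protein-coding transcript of each gene, occurred at a median of 0.963 per kb in the 65 higher members and 0.971 per kb in the 78 lower members, against 0.985 and 0.902 in all higher and lower listed protein-coding genes. The quartiles ran from 0.674 to 1.30 in the higher members and from 0.628 to 1.49 in the lower ones.

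Carriers that are known under other symbols were set beside the members as a list of 24, of which 11 were listed, 6 higher and 5 lower (median log2 fold change 0.26). STRA6, the retinol uptake receptor of the RPE, read scaled counts of 15.2, 20.2 and 3.74 in the sh-Control libraries and 101, 96.7 and 72.8 in the sh-METTL3 libraries, with no overlap and a log2 fold change of 2.94. UNC93B1, which escorts nucleic-acid-sensing Toll-like receptors, and SV2A, a vesicle protein, were lower by 1.08 and 0.89 on the log2 scale. Of 19 partners, energy suppliers and regulators of carriers 12 were listed, of which HIF1A and BSG were higher and 10 lower, with a median of -0.46. Over all listed genes the median was -0.21, with 47.6% higher and 52.2% lower, and the difference was not tested. SGK1, a kinase that keeps several carriers at the cell surface, read scaled counts of 1564, 1463 and 1535 in sh-Control and 461, 464 and 233 in sh-METTL3. Its sh-METTL3 libraries were all lower, the third lowest (log2 fold change -2.04, limma adjusted p 1.70e-05).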

How the data were processed

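RNA was sequenced from ARPE-19 cells in 6 libraries, 3 per group by the labels. Per the submitters' processing notes, reads were aligned with HISAT2 2.0.5 to hg38. The study's methods name Cufflinks with RefSeq mRNAs, which is not the form of the table, whose rows are Ensembl genes with the start and end of GENCODE release 29 for all 7758. The counter and strandedness are not given in the sources used here, so overlapping and antisense genes and near-identical copies are uncertain. The values the authors deposited per library are a signal, namely the read count of a gene divided by a size factor. Whole reads were recovered for 100% of values within a tolerance of 0.01. The authors also deposited group means, log2 fold changes and p-values, and these values were not used. No listed adjusted p-value exceeds 0.05, so the table holds genes already called, and other genes were not analysed here.

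Groups were compared with limma 3.58.1 in R 4.3.3 on log2-transformed scaled counts (pseudocount 1), with an intensity trend, no covariate and Benjamini-Hochberg adjustment over the 7758 listed genes at a threshold of 0.05. A fold change on this scale understates that of weak genes. edgeR 4.0.16 and DESeq2 1.42.0 were run on the recovered reads as alternatives, beside other pseudocounts, filters, thresholds and single libraries left out. limma was the main test because the values are scaled counts and not counts as deposited. The fits were tested on simulated data. Levels per kb used the exonic length in the table. Promoters were from RefSeq on GRCh38.p14.

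The members and gene lists were chosen with earlier results of these data known. The text names the 12 largest rises and 12 largest falls among called members with a mean of at least 100 in the higher group, the highest gene per kb of each family with at least 3 listed genes, and the listed ones of 32 members set in a list, 57 in all, of which some are not reported here; members named beyond these were chosen after their values were seen. Samples with the same replicate number did not deviate together (correlations 0.0036, 0.019 and -0.015), and the main fit did not pair them. Whether they were paired by design is not stated in the labels, and these correlations cannot settle it.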

Additional observations from a re-analysis of the deposited data

How the results depend on the processing

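Over 15 alternatives, 118 of the 144 SLC members stayed past the threshold wherever a value was obtained, 26, SLC7A11 among them, missed it in at least 1, and none of the 144 changed sign; the table lists only genes already called, which limits what this shows. With each library left out in turn, 137 to 142 members were called, 42 to 46 of them at least 2-fold changed, the median log2 fold change ran from -0.30 to -0.24 and that of METTL3 from -0.38 to -0.18, the last without sh-METTL3 replicate 3. The fall of METTL3 missed the threshold when all 58780 annotated genes were counted as tests (-0.30, limma adjusted p 0.0818) and under edgeR with RLE scaling (-0.17, edgeR adjusted p 0.0881). The median over members was -0.15 under RLE and -0.23 under TMM scaling; RLE moved the median of all listed genes by 0.12 on the log2 scale, and the share of higher calls was then 52.6% of all called genes against 47.7%. With a mean of at least 50 required, 28 members were at least 2-fold changed (14 higher, 14 lower), fewer genes being tested. Without the members on chromosomes 11 and 15, chosen after seeing the data, the median was 0.21, and the cause was not tested. The same removal was not made for all listed genes, most of which were also lower on these chromosomes. The called members that lost the call in at least 1 alternative were SLC1A4, SLC2A6, SLC2A12, SLC5A8, SLC7A6, SLC9A8, SLC12A4, SLC16A7, SLC16A14, SLC19A1, SLC22A3, SLC24A1, SLC25A14, SLC26A2, SLC30A3, SLC30A5, SLC31A1, SLC34A3, SLC35A5, SLC35C1, SLC35E1, SLC35E2B, SLC39A6, SLC39A8 and SLC39A13, and SLC7A11 gained it in 4. With the replicate number as a block, 143 members were called (65 higher, 78 lower), as without it, and the block changed no count of calls by over 1.5 times. Depth limits the members with under 100 scaled counts in both groups, where a few reads decide a fold.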
